A study of Mus musculus with 4 samples.

Results

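Chaperones are the proteins that help other proteins fold, and 31 genes for them were followed through a series of single-cell RNA libraries of mouse embryos in diapause and around implantation. The genes were chosen by name, with no measured value in the rule: 8 subunits of the cytosolic CCT ring, 11 genes of the cytosolic HSP70 and HSP90 systems, 8 chaperones of the endoplasmic reticulum (ER) and 4 of the mitochondria. All 31 were found in each of the 4 deposited tables, which together hold 25437 gene names. The embryos were whole, wild-type embryos of the strain B6C3F1/J, and each library was 1 pool of embryos captured on BD Rhapsody microwells after dissociation with TrypLE. About 200 to 250 blastocysts flushed from the uterus went into each of the libraries EDG7.5, EDG9.5 and Reactivated, the last labelled EDG9.5 with 30 h of E2 added. The E5.5 library came from 50 embryos taken with forceps out of implantation sites. With 1 library per stage no difference between stages has a replicate check, and stage cannot be told apart from pool, library and collection route.

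The CCT ring is a double barrel of related subunits that folds actin, tubulin and other cytosolic proteins. HSP70 and HSP90 proteins bind unfolded or nearly folded clients in the cytosol, and some of their genes are kept on in every cell while others are switched on by heat shock factor. ER chaperones fold secreted and membrane proteins and are known targets of the unfolded protein response, and HSP60 with its lid HSP10 folds proteins imported into mitochondria. In the early embryo the primitive endoderm and its descendants are known for secreting basement membrane proteins, which pass through the ER.

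The gene starts of the ER group are shown first because a DNA motif, searched without any use of the counts, was found in this group and in no other. The ER stress element, searched as CCAAT, then 9 bases of any kind, then CCACG on both strands in the 250 bases before the RefSeq gene start (GRCm38.p6), was found in 5 of the 8 ER chaperones and in 0 of the other 18 members that have an entry. Of all 27025 genes in the table, 35 (0.13%) hold it in a window of the same length. The element is named for ER stress, and ER chaperones are known targets of the unfolded protein response. Matches in this group are thus not an independent finding. The 5 genes are Hspa5, Calr, Hsp90b1, Canx and Pdia6, and no match was found at Pdia3, Pdia4 or P4hb. Below, each stretch is read 5′ to 3′ on the strand of its gene, with the element in capitals, and covers the part of the window around the element that overlaps no annotated exon; at Hspa5 the element lies in an annotated exon and is printed alone. In Calr and at the second site of Hsp90b1 the element runs on the opposite strand.
Hspa5: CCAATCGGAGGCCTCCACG
Calr: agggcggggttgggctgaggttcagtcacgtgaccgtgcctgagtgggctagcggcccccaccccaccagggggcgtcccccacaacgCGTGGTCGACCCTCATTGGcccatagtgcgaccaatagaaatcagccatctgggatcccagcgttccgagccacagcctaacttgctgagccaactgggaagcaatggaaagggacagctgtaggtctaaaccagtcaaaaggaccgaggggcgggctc
Hsp90b1: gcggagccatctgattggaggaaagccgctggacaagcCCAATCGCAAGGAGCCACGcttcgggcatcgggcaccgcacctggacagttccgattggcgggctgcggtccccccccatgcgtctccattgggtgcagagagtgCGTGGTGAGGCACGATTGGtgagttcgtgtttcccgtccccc
Canx: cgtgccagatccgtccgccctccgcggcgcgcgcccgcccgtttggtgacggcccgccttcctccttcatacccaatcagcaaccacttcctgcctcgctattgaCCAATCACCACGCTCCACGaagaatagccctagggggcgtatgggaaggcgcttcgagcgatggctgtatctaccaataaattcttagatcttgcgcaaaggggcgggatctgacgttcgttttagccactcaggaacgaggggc
Pdia6: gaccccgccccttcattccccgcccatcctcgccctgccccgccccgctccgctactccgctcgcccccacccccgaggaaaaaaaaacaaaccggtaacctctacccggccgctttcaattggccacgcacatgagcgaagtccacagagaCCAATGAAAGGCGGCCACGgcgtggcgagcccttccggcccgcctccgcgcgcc

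The Hspa5 element is at chr2:34772025-34772043 on the plus strand. The Pdia6 stretch is at chr12:17266339-17266544, also on the plus strand. On the minus strand lie Calr at chr8:84846935-84847181, Hsp90b1 at chr10:86705510-86705694 and Canx at chr11:50325674-50325923. The 5-base CCAAT motif alone was less selective: all 8 ER chaperones hold it, but so do 37.5% of all genes in the table, and the ER stress element contains it. The heat shock element, searched as GAA, TTC and GAA or as TTC, GAA and TTC with 2 bases of any kind between the triplets, on both strands, was found at Hspd1 and Hspe1 and at no other member with an entry, against 0.514% of all genes. These neighbours encode HSP60 and HSP10 and are read in opposite directions. RefSeq gives Hspd1 a start at 55088243, within the Hspe1 gene and 95 bases past its start, and another at 55087932, which is 216 bases before it. Only the second has the element in its window. The match is shown because the window of that start and the window of Hspe1 both hold it, at chr1:55088059-55088076, inside the annotated Hspd1 locus and read here on the plus strand, that of Hspe1:
Hspe1 and Hspd1: TTCTAGAACCTTCCGGAA

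These matches are descriptions of letters and not of factor binding, and the table has no entry for Cct4, Hspa8, Hspa9, Hsp90aa1 or Hsp90ab1.

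Depth was 9620232 molecules (UMIs) from 1726 barcodes for EDG7.5, 10994918 from 2566 barcodes for EDG9.5, 9270833 from 677 barcodes for Reactivated and 87507141 from 9560 barcodes for E5.5. Cells were clustered within each library and the clusters named from marker lists as epiblast-like, endoderm-like or trophoblast-like, called epiblast, endoderm and trophoblast from here on. No lineage names from the authors were used. Epiblast held 488, 595, 206 and 2641 cells (diapause libraries first, then Reactivated, then E5.5), endoderm 582, 906, 302 and 2994, and trophoblast 588, 899, 133 and 3628. A further 51 cells of EDG9.5 and 30 of Reactivated, in clusters led by Csta, S100a8 and S100a9 among others, stayed unnamed. Between 1 and 27 cell barcodes were shared by any pair of libraries, at most 1.33% of the smaller one. The 12 epiblast markers summed to 7216, 8531, 5972 and 3571 CPM in epiblast, the 18 endoderm markers to 17477, 16681, 17948 and 18004 CPM in endoderm and the 14 trophoblast markers found in the tables (of 15 listed, with 1 or 2 of them at 0 in the first 3 libraries) to 3612, 3715, 3447 and 5651 CPM in trophoblast, in the same order. Markers of decidual stroma summed to at most 156 CPM, reached in Reactivated epiblast, and those of red blood cells to at most 1.56 CPM. The uterine epithelium list reached 962 CPM in EDG7.5 trophoblast, and the immune list 233 CPM in EDG7.5 epiblast, of which Laptm5 gave 231 CPM. The part of such RNA in the chaperone results was not tested.

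All UMIs of a lineage within 1 library were added up, and levels are counts per 1000000 of that sum (CPM), so a value is a share of the lineage's UMIs, and more RNA of a gene cannot be told apart from less of all others. Series of 4 values below run from EDG7.5 through EDG9.5 and Reactivated to E5.5. Ratios carry 95% intervals in parentheses that cover counting error only and not the spread between embryos. A gene was counted as 2-fold higher or lower when its log2 ratio, with 10 CPM added to both values, was at least 1 in size, and no test was made because cells of 1 library are not replicates.

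Within diapause few genes of any kind differed by 2-fold, and the chaperones were no exception. Between EDG7.5 and EDG9.5, 0 members were 2-fold higher and 0 were 2-fold lower among the 30 measured in epiblast and the 31 each in endoderm and trophoblast, where 0.0403%, 0.159% and 0.0351% of all measured genes were 2-fold higher and 0.0242%, 0.0717% and 0.114% lower. The summed CPM of all 31 genes was 1.14 (1.12 to 1.15) times as high in EDG9.5 epiblast, 1.03 (1.01 to 1.04) times in endoderm and 1.04 (1.02 to 1.05) times in trophoblast.

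Reactivated and E5.5 held more chaperone transcripts than diapause in every lineage, and the most genes past 2-fold in trophoblast. In Reactivated over EDG9.5, 7 of 31 members were 2-fold higher in epiblast (7.31% of all genes measured), 12 in endoderm (5.58%) and 23 in trophoblast (11.3%), and 0 were 2-fold lower in any of them (16.2%, 10.6% and 11.7% of all genes). The median log2 ratio of the members was 0.75, 0.70 and 1.31, against -0.22, -0.16 and -0.07 over all genes. In E5.5 over EDG9.5, 16 members were 2-fold higher in epiblast (7.01% of all genes), 7 in endoderm (6.07%) and 25 in trophoblast (12.1%). The numbers 2-fold lower were 4 (Hspb1, Dnajb1, Hspa5 and Calr), 1 (Hspa1b) and 0 (12.5%, 8.52% and 8.52% of all genes). Both comparisons use the same EDG9.5 library, so they are not independent of each other. In trophoblast the count of 23 includes Hspa1a, whose ratio rested on 1 cell, and the count of 25 includes Hspb1, whose direction turned with the mitochondrial limit; both are described below.

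E5.5 and Reactivated were closer to each other in the number of members 2-fold higher, as they were over all genes. In E5.5 over Reactivated, 1 member, Tcp1, was 2-fold higher in epiblast (3.07% of all genes), 0 in endoderm (3.16%) and 3 in trophoblast (4.46%), namely Tcp1, Hspd1 and Trap1. Those 2-fold lower numbered 4, 4 and 2 (4.54%, 2.35% and 3.12% of all genes), and all were Hspa1a, Hspa1b, Hspb1, Hspa5 or Calr. Scaling by TMM factors in place of the plain total shifted the all-gene median of Reactivated over EDG9.5: epiblast went from -0.22 to -0.04 and endoderm from -0.16 to 0.02. It moved the same median in E5.5 over EDG9.5 from -0.04 to 0.08 and from -0.06 to 0.05. With TMM factors the members 2-fold higher in Reactivated over EDG9.5 numbered 17 in epiblast, 17 in endoderm and 20 in trophoblast, with 0 lower, against 11.7%, 10.4% and 10.3% of all genes higher and 10.9%, 6.12% and 12.5% lower on that scale. In E5.5 over EDG9.5 they numbered 18 in epiblast with 2 lower, 18 in endoderm with 0 lower and 25 in trophoblast with 0 lower, against 11.8%, 10.2% and 12.5% of all genes higher and 8.54%, 5.47% and 8.45% lower.

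**Figure D1:**
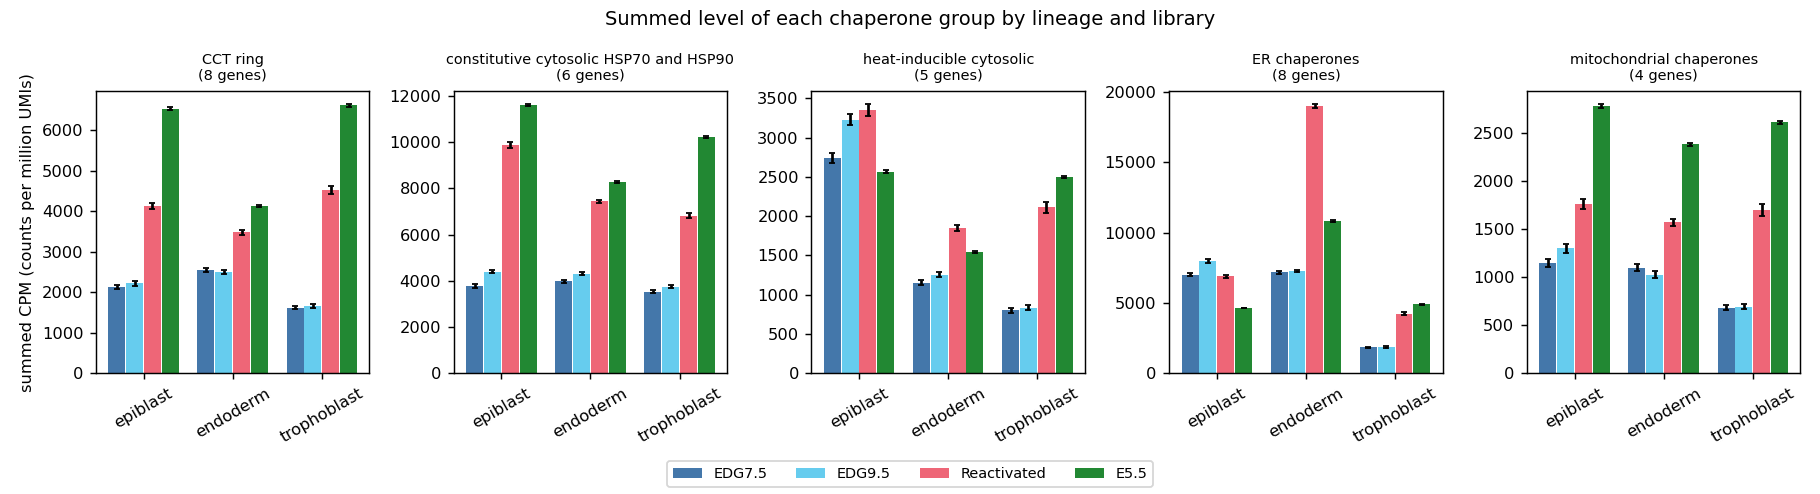
Summed CPM (y axis) of the genes of each chaperone group in the 3 lineages (x axis) of the 4 libraries (colours), with exact 95% Poisson intervals as error bars. The CCT, constitutive cytosolic and mitochondrial groups are higher in Reactivated and E5.5 than in either diapause library in every lineage, while the ER group peaks in Reactivated endoderm at 19001 CPM and is lowest of all 4 epiblasts in E5.5, at 4633 CPM.

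Transcripts of the CCT ring were higher in Reactivated and E5.5 than in diapause in all 3 lineages. Its 8 subunits summed to 2131, 2217, 4129.6 and 6524 CPM in epiblast, 2552, 2500.5, 3473 and 4131 CPM in endoderm and 1620.2, 1661, 4515 and 6604 CPM in trophoblast. The 2 diapause libraries lay close together and below both others in every lineage. In Reactivated the sum was 1.86 (1.80 to 1.92) times that of EDG9.5 in epiblast, 1.39 (1.35 to 1.42) times in endoderm and 2.72 (2.63 to 2.81) times in trophoblast, and in E5.5 it was 2.94 (2.87 to 3.02), 1.65 (1.62 to 1.69) and 3.98 (3.88 to 4.08) times. Counted by subunit, 2, 1 and 8 of 8 were 2-fold higher in Reactivated in epiblast, endoderm and trophoblast, and 8, 2 and 8 of 8 in E5.5. Trophoblast had the lowest sum of the 3 lineages in diapause and the highest in Reactivated and E5.5.

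All 8 subunits enter each ring in equal number, yet their transcripts did not differ by equal amounts. Cct3 had the largest ratio in Reactivated trophoblast, at 161, 122, 554 and 509 CPM, or 4.53-fold (4.06 to 5.06) over EDG9.5. In epiblast Cct3 stood at 189, 163, 509 and 601 CPM, and Reactivated was above both diapause libraries in both lineages, below E5.5 in epiblast and above it in trophoblast. Tcp1, the subunit CCT1, was higher mainly in E5.5: its epiblast levels were 170.5, 170.3, 218 and 561 CPM and its trophoblast levels 120.1, 109, 254 and 581 CPM. Over EDG9.5, Tcp1 in epiblast was 1.28-fold (1.13 to 1.46) in Reactivated and 3.30-fold (2.99 to 3.63) in E5.5, and it was the 1 member 2-fold higher in E5.5 epiblast than in Reactivated epiblast, by 2.57 (2.36 to 2.80).

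Cct4 was also higher mainly in E5.5 in epiblast, with 387, 439, 506 and 964 CPM. Its Reactivated epiblast value was 1.15 (1.06 to 1.25) times that of EDG9.5, the smallest ratio of the 8. In endoderm, Tcp1 and Cct4 were the 2 subunits not above EDG9.5 in Reactivated, at 0.966 (0.884 to 1.06) and 0.899 (0.843 to 0.960) times, and with TMM factors both turned to 1.26 and 1.17 times. Cct8, at 240.3, 203, 681 and 1155 CPM in trophoblast, had the largest E5.5 ratio of the 8 there, 5.68 (5.30 to 6.10) times EDG9.5. Cct5 stood at 216, 223, 655 and 994 CPM in trophoblast, 4.46 (4.17 to 4.77) times EDG9.5 in E5.5. Cct2 stood at 373, 434, 993 and 1496 CPM and Cct7 at 106, 111, 382 and 426 CPM in trophoblast, with both diapause values below both others. Cct6a stood at 91.6, 89.6, 235 and 370.0 CPM there. Cct2, Cct6a and Cct7 were 2.28, 2.63 and 3.45 times as high in Reactivated as in EDG9.5 trophoblast. Cct7 was the 1 subunit past 2-fold in Reactivated endoderm, at 2.15 (1.93 to 2.40) times.

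Clusters within a lineage differed little in the ring. The CCT sum ran from 6516 to 6608 CPM over the 3 epiblast clusters of E5.5 and from 2399.8 to 2771 CPM over the 3 endoderm clusters of EDG9.5. The widest spread was in Reactivated trophoblast, from 3267 to 4878 CPM, and even its lowest cluster lay above the highest trophoblast cluster of EDG9.5, at 1885 CPM.

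The constitutive cytosolic HSP70 and HSP90 genes were also higher in Reactivated and E5.5 than in diapause, with Stip1 in front. The 6 genes summed to 3770.0, 4399.7, 9881 and 11588 CPM in epiblast, 3976, 4312, 7434 and 8266 CPM in endoderm and 3528, 3741, 6818 and 10208 CPM in trophoblast. Reactivated stood at 2.25 (2.20 to 2.30), 1.72 (1.69 to 1.76) and 1.82 (1.78 to 1.87) times EDG9.5 in these lineages, and E5.5 at 2.63 (2.58 to 2.68), 1.92 (1.89 to 1.95) and 2.73 (2.68 to 2.77) times. The summed ratio in Reactivated was largest in epiblast, while the median log2 ratio of the 6 genes was 1.14 in epiblast, 0.74 in endoderm and 1.39 in trophoblast.

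Stip1 encodes HOP, the adaptor that hands clients from HSP70 to HSP90. Its levels were 198, 169, 651 and 662 CPM in epiblast, 131, 119, 338 and 407 CPM in endoderm and 98.6, 76.9, 472 and 562 CPM in trophoblast. Reactivated exceeded EDG9.5 by 3.86 (3.47 to 4.30) times in epiblast, 2.84 (2.55 to 3.16) times in endoderm and 6.14 (5.37 to 7.02) times in trophoblast, and Stip1 was 2-fold higher in all 3 lineages in both Reactivated and E5.5. Hspa8, the constitutive HSC70, did the same from a nearly equal start: its levels were 327, 344, 921 and 1274 CPM in epiblast, 326, 348, 725 and 981 CPM in endoderm and 319, 319, 865 and 1285 CPM in trophoblast. These are the 2 members that were past 2-fold in every lineage in both comparisons.

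Hsp90ab1, the constitutive HSP90 beta, stood at 2472, 3149, 6766 and 7985 CPM in epiblast, 2829, 3175, 5452 and 5695 CPM in endoderm and 2629, 2939, 4613 and 7019 CPM in trophoblast. Its Reactivated ratio was 2.15 (2.09 to 2.21) in epiblast but 1.57 (1.53 to 1.62) in trophoblast, and trophoblast passed 2-fold only in E5.5, at 2.39 (2.34 to 2.43). Hspa4, an HSP110-type exchange factor for HSP70, reached 464, 454, 1041 and 987 CPM in epiblast, where Reactivated and E5.5 were nearly equal. Trophoblast held 220.2, 193, 516 and 771 CPM of Hspa4, with E5.5 3.998 (3.72 to 4.30) times EDG9.5. Ahsa1, the activator of the HSP90 ATPase, rested on fewer counts and stood at 31.5, 23.6, 96.5 and 104 CPM in trophoblast and 44.1, 35.1, 40.8 and 80.0 CPM in endoderm. In endoderm its Reactivated value was within counting error of EDG9.5, with a ratio of 1.16 (0.925 to 1.46). Dnaja1, a J-domain partner of HSP70, had the smallest Reactivated ratios of the group, 1.73 (1.57 to 1.92), 1.09 (1.01 to 1.18) and 1.34 (1.19 to 1.51) in epiblast, endoderm and trophoblast. Its epiblast levels were 268, 237, 410.4 and 556 CPM, and E5.5 was past 2-fold there and in trophoblast.

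The 5 heat-inducible genes did not move together. Hspb1 was far lower in E5.5 epiblast, and Hsp90aa1 was 2-fold higher in trophoblast alone. Dnajb1 was 2-fold lower in E5.5 epiblast on the plain total but fell short of it with TMM factors. Hspa1a and Hspa1b were low, with higher values in Reactivated trophoblast. These rested largely on 1 cell for Hspa1a and in part on the same cell for Hspa1b. Beside them, the summed CPM of 14 immediate early genes, which are known to respond to dissociation, was 2955, 4109, 1679.9 and 455 for epiblast, 2808, 4316, 1392 and 1265 for endoderm and 6214, 7383, 2137 and 2843 for trophoblast, highest in EDG9.5 in each. The share of mitochondrially encoded UMIs ran from 4.08% to 10.6% over the 12 lineage sums. Their part in these results was not tested.

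Hspb1, the small heat shock protein HSP27, stood at 692, 696, 955 and 51.5 CPM in epiblast. The 3 flushed libraries were alike with the Reactivated value highest, and E5.5 was 13.5 times (12.5 to 14.5) below EDG9.5, the largest difference of any member in any comparison with EDG9.5. After thinning every cell to 1000 UMIs, which left out 0 cells, 47.5%, 47.6%, 63.6% and 4.43% of epiblast cells had an Hspb1 UMI, and without thinning 92.6%, 84.5%, 100% and 32.4%. The endoderm levels were 268, 260.1, 769 and 222 CPM, so Reactivated endoderm was 2.96 (2.76 to 3.18) times EDG9.5 and E5.5 endoderm was 0.855 (0.799 to 0.916) times EDG9.5, or 1.11 times with TMM factors.

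In trophoblast Hspb1 was low, at 10.3, 9.65, 17.2 and 42.2 CPM, and rested on few cells. Thinned shares of trophoblast cells with a UMI were 1.19%, 1.001%, 3.01% and 3.804%, against 1.02%, 0.334%, 3.76% and 18.3% for Sparc, an endoderm gene that trophoblast should hold little of; median depth per trophoblast cell was 4725, 3718, 12192 and 8747 UMIs. Without thinning the Hspb1 shares were 4.25%, 3.34%, 15.0% and 20.4%. No background is set from Sparc, which was chosen after its values were seen and is found in far more endoderm cells than Hspb1 is (85.4% against 19.0% in E5.5 after thinning). Within E5.5 trophoblast the cluster led by Prl3d1, Prl3d2 and Prl3d3 (369 cells) had 164 CPM, against 10.5 to 52.3 CPM in the other 3. In EDG9.5 the unnamed cluster had 177 CPM, and with the unnamed clusters counted as trophoblast the log2 ratio of E5.5 over EDG9.5 was 0.37 in place of 1.41. With a mitochondrial limit of 10% it turned to -0.64, so no direction is given for Hspb1 in trophoblast.

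Hsp90aa1, the inducible HSP90 alpha, was nearly flat in epiblast on the plain total and not in trophoblast. Epiblast held 1914, 2373, 2258 and 2451 CPM. Trophoblast held 649, 679, 1814 and 2347 CPM, low in both diapause libraries and high in both others. Reactivated trophoblast was 2.67 (2.54 to 2.81) times and E5.5 trophoblast 3.46 (3.33 to 3.59) times EDG9.5. The epiblast ratios were 0.951 (0.917 to 0.986) and 1.03 (1.01 to 1.06), the first of them 1.19 with TMM factors. The second was also higher with TMM factors, which turned the E5.5 epiblast sum of the 5 heat-inducible genes from 0.794 to 1.06 times EDG9.5. Whether Hsp90aa1 was flat in epiblast thus depends on the scaling. The lineages thus were far apart in EDG9.5, and E5.5 epiblast and trophoblast were nearly level.

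Dnajb1, the J-domain protein HSP40, went the other way, with 124, 155, 98.4 and 54.6 CPM in epiblast. Endoderm held 124, 154, 101 and 84.5 CPM, also lowest in E5.5. The E5.5 epiblast level was 0.351 (0.314 to 0.394) times that of EDG9.5. In trophoblast it stood at 112, 113, 109.7 and 90.04 CPM, and its Reactivated value was within counting error of EDG9.5, at 0.969 (0.813 to 1.15) times, or 1.05 times as a mean over cells.

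Hspa1a and Hspa1b encode the stress-inducible HSP70 and are near-identical copies, so the split of counts between them is uncertain. Hspa1a stood at 2.43, 4.57, 48.8 and 1.15 CPM in trophoblast and Hspa1b at 27.3, 28.2, 122 and 18.6 CPM. Reactivated trophoblast was highest for both, at 10.7 (6.37 to 18.9) and 4.32 (3.42 to 5.49) times EDG9.5. This rested largely on 1 cell for Hspa1a and in part on it for Hspa1b. That cell, with 4566 UMIs in all, held 63 of 85 Hspa1a UMIs and 90 of 212 Hspa1b UMIs. Without it Hspa1a was 12.7 CPM (7.94 to 19.2) and its log2 ratio over EDG9.5 was 0.64 in place of 2.01, no longer past 2-fold. Hspa1b was 70.3 CPM (58.3 to 83.9) without it and kept a log2 ratio of 1.07. In epiblast Hspa1b stood at 12.3, 5.11, 29.9 and 6.86 CPM, and Reactivated was past 2-fold over EDG9.5 there too, from 13 and 77 UMIs. Both genes were lowest in E5.5 in endoderm, with 23.3, 21.0, 26.8 and 5.20 CPM for Hspa1b. In E5.5 Hspa1a stood at 0.949, 0.406 and 1.15 CPM in epiblast, endoderm and trophoblast.

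**Figure D2:**
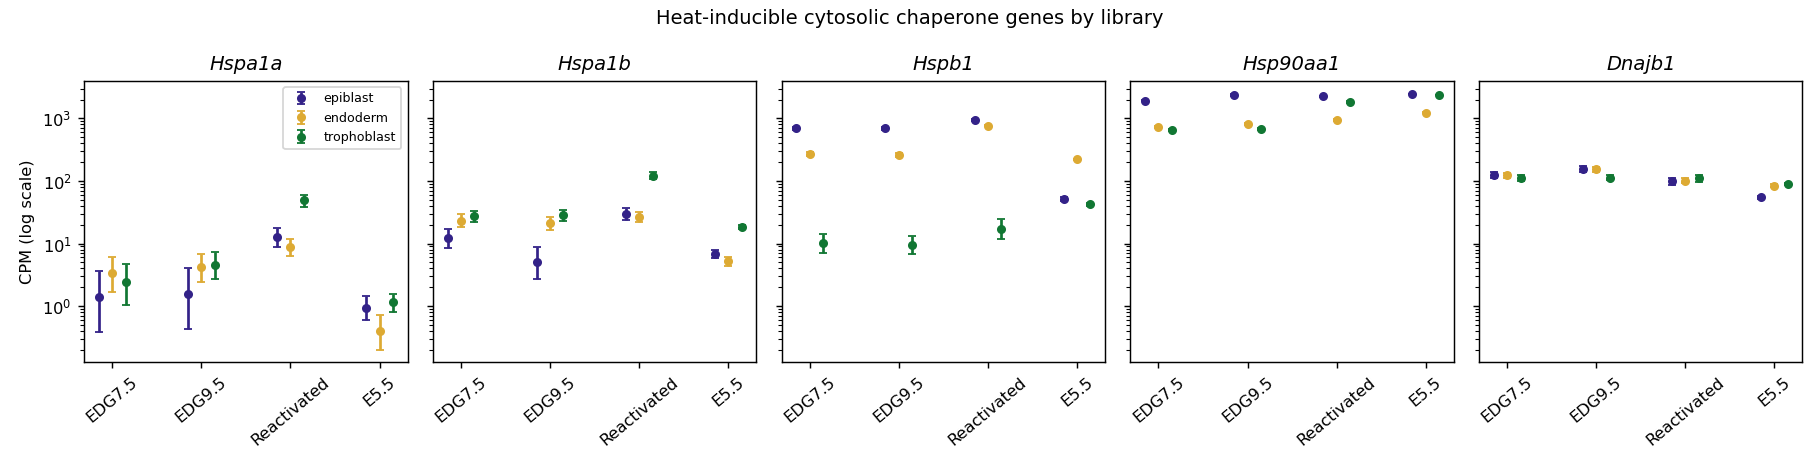
CPM on a log scale (y axis) of the 5 heat-inducible genes in the 4 libraries (x axis), by lineage (colour), with exact 95% Poisson intervals as bars. Hspb1 in epiblast is at 955 CPM in Reactivated and 51.5 CPM in E5.5. Hsp90aa1 in trophoblast is still below the epiblast level in Reactivated and nearly level with it in E5.5.

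The ER chaperones split by lineage. In endoderm the 8 genes summed to 7184, 7276, 19001 and 10828 CPM, in trophoblast to 1849, 1872, 4237 and 4902 CPM and in epiblast to 7016, 7986, 6902 and 4633 CPM. Reactivated endoderm was by far the highest of the 12 values, 2.61 (2.58 to 2.65) times EDG9.5 endoderm, and E5.5 endoderm was 0.570 (0.566 to 0.574) times Reactivated. Trophoblast was 2.26 (2.19 to 2.34) times EDG9.5 in Reactivated and 2.62 (2.56 to 2.68) times in E5.5. Epiblast did not follow: its sum in Reactivated was 0.864 (0.847 to 0.882) times that of EDG9.5 on the plain total and 1.09 times with TMM factors, so its direction depends on the scaling, and in E5.5 it was 0.580 (0.572 to 0.589) times, or 0.778 with TMM factors. By gene, 0 of 8 in epiblast, 7 in endoderm and 7 in trophoblast were 2-fold higher in Reactivated, and Canx was the exception in the last 2 lineages.

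Hspa5 encodes BiP, the HSP70 of the ER and sensor of unfolded protein there. It stood at 2006, 1941, 4699 and 1988 CPM in endoderm, 1839, 2087, 1405 and 791 CPM in epiblast, against 423, 420.2, 862 and 994 CPM in trophoblast. Its endoderm level was 2.42 (2.36 to 2.49) times EDG9.5 in Reactivated and 1.02 (0.999 to 1.05) times in E5.5. The latter was 0.9502 times when ribosomal protein and mitochondrial genes are left out of the total. With TMM factors it was higher than on the plain total, as was the ER sum in E5.5 endoderm, at 1.93 in place of 1.49 times EDG9.5. The direction for Hspa5 in E5.5 endoderm thus depends on the scaling. In epiblast E5.5 was 0.379 (0.368 to 0.391) times EDG9.5. Hsp90b1, the ER paralog GRP94 of HSP90, gave the largest trophoblast ratio of the group: 146, 168, 567 and 909 CPM, or 5.41 (5.01 to 5.85) times EDG9.5 in E5.5. In endoderm it stood at 1116, 1092, 3821 and 2148 CPM, again highest in Reactivated. Epiblast held 1511, 1763, 1404 and 1002 CPM, with E5.5 lowest.

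Calr and Canx encode calreticulin and calnexin, the soluble and the membrane-bound lectin chaperones that hold glycoproteins. Calr stood at 1528, 1474, 4193 and 2036 CPM in endoderm and 1812, 2083, 1645 and 734 CPM in epiblast, with E5.5 epiblast 0.353 (0.342 to 0.364) times EDG9.5. Calr and Hspa5 were the 2 ER chaperones 2-fold lower in E5.5 epiblast than in EDG9.5 on the plain total. With TMM factors Calr stayed past 2-fold and Hspa5 fell short of it. Canx stood at 739, 827, 962 and 1086 CPM in endoderm and 775, 886, 686 and 799 CPM in epiblast, a narrow range in each. Its Reactivated endoderm ratio was 1.16 (1.11 to 1.22). In trophoblast Canx stood at 396, 429, 532 and 819 CPM, highest in E5.5 but short of 2-fold over EDG9.5. Calr in trophoblast was highest in Reactivated, at 432, 462, 1164 and 898 CPM.

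Among the protein disulfide isomerases, Pdia4 and Pdia6 had the largest Reactivated endoderm ratios of the 8 ER genes. Pdia4 stood at 66.8, 76.1, 316 and 154 CPM and Pdia6 at 289, 283, 1146 and 625 CPM in endoderm, or 4.15 (3.65 to 4.73) and 4.05 (3.79 to 4.33) times EDG9.5 in Reactivated. Pdia3, the isomerase partner of the lectin chaperones, stood at 555, 692, 1886 and 1218 CPM in endoderm and 432, 514, 734 and 538 CPM in epiblast. P4hb, which encodes PDI and is also a subunit of collagen prolyl hydroxylase, was the 1 ER chaperone 2-fold higher in endoderm than in epiblast in both diapause libraries (5.78% and 6.07% of all genes): it stood at 884, 891, 1977 and 1572 CPM in endoderm, 248, 229.6, 392 and 424 CPM in epiblast, against 226, 179, 431 and 488 CPM in trophoblast. In epiblast the isomerases Pdia3, Pdia4, Pdia6 and P4hb were 1.43, 1.27, 1.603 and 1.71 times EDG9.5 in Reactivated, while Hspa5, Hsp90b1, Calr and Canx were 0.673, 0.796, 0.790 and 0.774 times; with TMM factors Hspa5 was 0.846, Hsp90b1 0.9999, Calr 0.991 and Canx 0.972 times.

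Set beside the printed promoter stretches, the element did not sort the genes by their counts in endoderm. In Reactivated over EDG9.5 endoderm the 5 genes with the ER stress element had ratios of 2.42 for Hspa5, 2.84 for Calr, 3.50 for Hsp90b1, 4.05 for Pdia6 and 1.16 for Canx. The 3 without a match had 2.73 for Pdia3, 4.15 for Pdia4 and 2.22 for P4hb. Canx, with the element, had the smallest ratio of the 8. In epiblast, Hspa5, Calr, Hsp90b1 and Canx were lower in Reactivated than in EDG9.5 on the plain total, as given above. Pdia6, with the element, and the 3 genes without a match were higher there. With TMM factors Hsp90b1, Calr and Canx were nearly level with EDG9.5. The part of the element in these values was not tested.

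**Figure D3:**
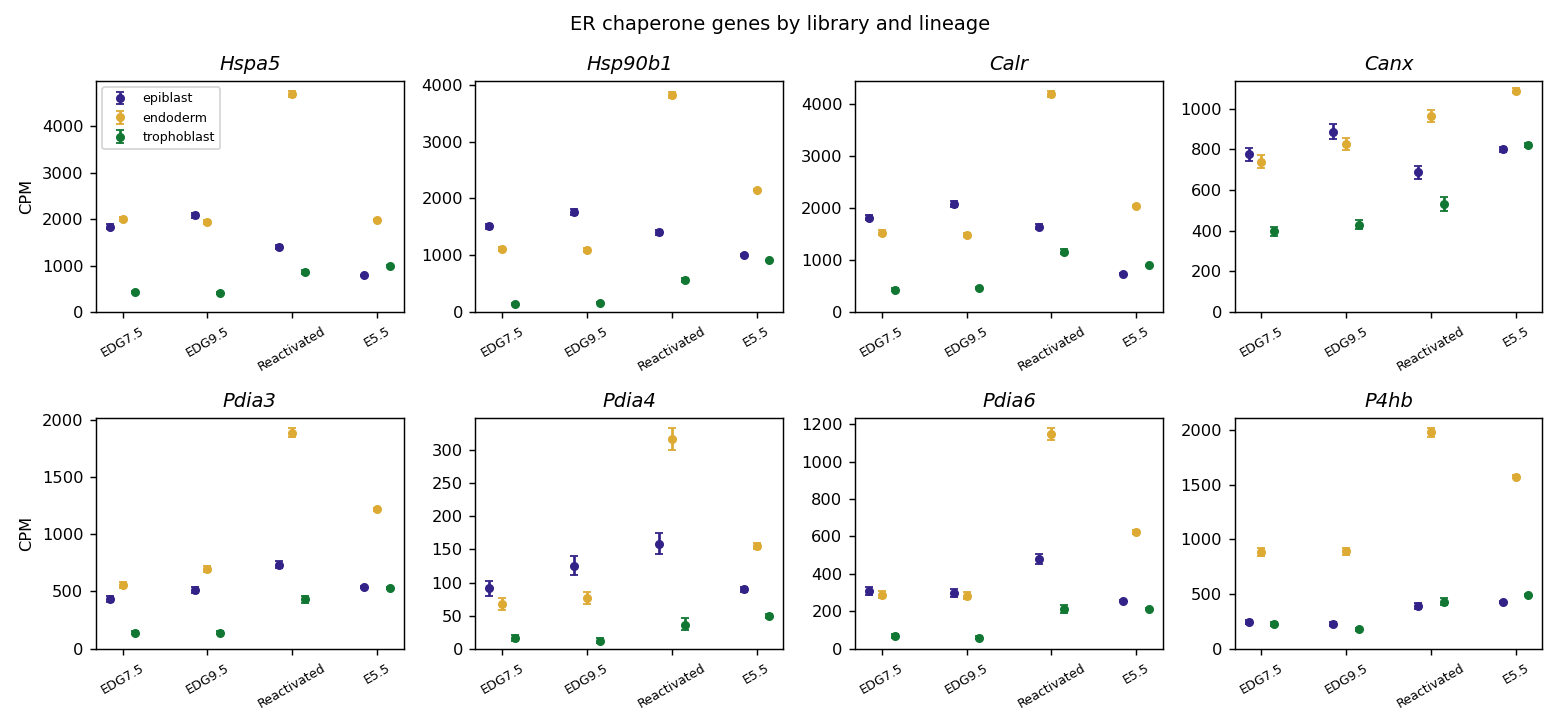
CPM (y axis, linear, own scale per gene) of the 8 ER chaperones in the 4 libraries (x axis), by lineage (colour), with exact 95% Poisson intervals as bars. All genes but Canx peak in Reactivated endoderm, for example Hspa5 at 4699 CPM, and Canx is highest in E5.5 endoderm at 1086 CPM.

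Across lineages of 1 library, endoderm held more ER chaperone transcripts than trophoblast throughout. From EDG7.5 to E5.5 the 4 ratios of sums were 3.89 (3.78 to 3.998), 3.89 (3.79 to 3.99), 4.48 (4.38 to 4.59) and 2.21 (2.20 to 2.22), with 7, 7, 7 and 6 of 8 genes 2-fold higher (13.7%, 12.6%, 10.1% and 6.83% of all genes). Epiblast was level with endoderm in diapause and not in Reactivated or E5.5: the ratio of endoderm to epiblast was 1.02 (1.005 to 1.04), 0.911 (0.895 to 0.928), 2.75 (2.71 to 2.80) and 2.34 (2.32 to 2.35) in the same order. By gene, endoderm was 2-fold above epiblast for 1 of 8 in each diapause library and for 6 in Reactivated (10.7% of all genes) and 6 in E5.5 (8.32%). The sum in epiblast was 3.795 (3.69 to 3.91), 4.27 (4.15 to 4.38), 1.63 (1.59 to 1.67) and 0.945 (0.938 to 0.952) times that in trophoblast, so these 2 lineages were far apart in diapause and nearly level in E5.5. The genes 2-fold higher in epiblast than in trophoblast numbered 6, 7, 3 and 0 of 8, against 17.4%, 17.4%, 12.6% and 4.79% of all genes. By contrast the CCT sum of endoderm was 1.51 (1.46 to 1.55) times that of trophoblast in EDG9.5 and 0.625 (0.621 to 0.630) times in E5.5.

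Single clusters stood out in the ER group. The E5.5 endoderm cluster led by Lama1, Fst and Stra6 (407 cells) summed to 19804 CPM, and the other 3 endoderm clusters, led by Lhx1, by Apoc2 and by a set with Fabp1 and Cubn, to 8973, 9935 and 10704 CPM. All 3 Reactivated endoderm clusters lay around that level, from 17696 to 20642 CPM, and those of EDG9.5 ran from 6386 to 8005 CPM. Among the 4 E5.5 trophoblast clusters, the Prl3d1-led one was highest, at 6576 CPM against 4469.8 to 5143 CPM. At the other end, 22 EDG7.5 epiblast cells with a median of 2405.5 UMIs formed a cluster with 1719.8 CPM beside 7337 and 6346 CPM in the other 2. The clusters were made from expression in the same cells, so these values are descriptions.

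**Figure D4:**
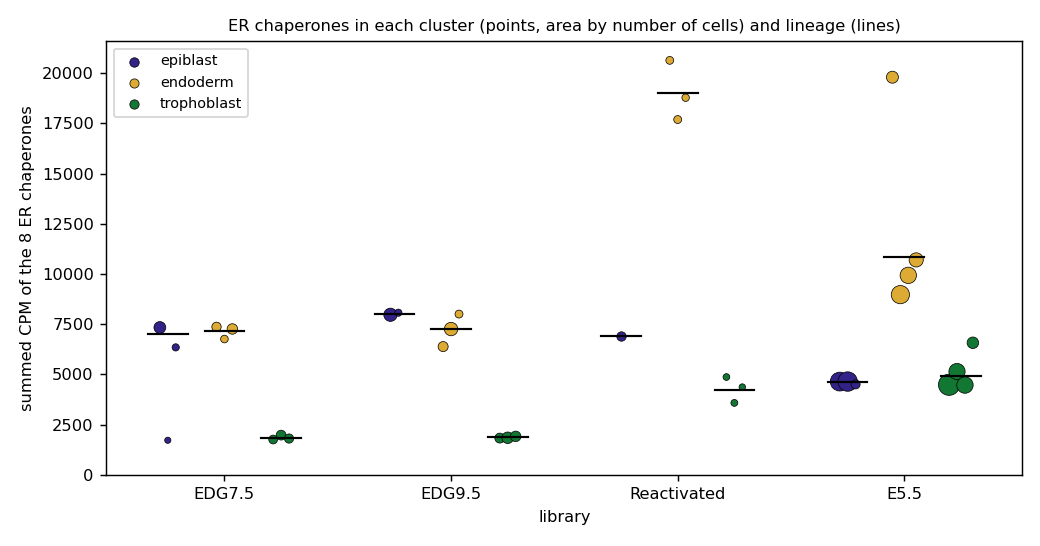
Summed CPM of the 8 ER chaperones (y axis) in every named cluster (points, area growing with its number of cells) and lineage (black lines) of the 4 libraries (x axis). The 3 Reactivated endoderm clusters and 1 E5.5 endoderm cluster lie between 17696 and 20642 CPM, above all other clusters.

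The mitochondrial chaperones were highest in E5.5 in every lineage. The 4 genes summed to 1148, 1300.3, 1762 and 2777 CPM in epiblast, 1097, 1026, 1573 and 2382 CPM in endoderm and 683, 694, 1702 and 2611 CPM in trophoblast. Reactivated stood at 1.35 (1.30 to 1.42), 1.53 (1.47 to 1.59) and 2.45 (2.33 to 2.59) times EDG9.5, and E5.5 at 2.14 (2.06 to 2.21), 2.32 (2.25 to 2.40) and 3.76 (3.62 to 3.91) times. As for the CCT ring, trophoblast had the lowest sums in diapause and the largest ratios.

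Hspe1 (HSP10) and Hspd1 (HSP60), the neighbours with the heat shock element printed above, carried most of this difference. Hspe1 stood at 341, 342, 649 and 1163 CPM in epiblast, 284, 286, 694 and 1048 CPM in endoderm and 275, 260.0, 933 and 995 CPM in trophoblast. Hspd1 stood at 348, 363, 636 and 1033 CPM, 405, 378, 504 and 872 CPM and 202, 213, 411 and 984 CPM in the same lineages. Both were 2-fold higher in E5.5 than in EDG9.5 in every lineage, by 3.40 (3.18 to 3.64), 3.66 (3.45 to 3.90) and 3.83 (3.59 to 4.07) times for Hspe1 and 2.85 (2.67 to 3.04), 2.31 (2.19 to 2.43) and 4.62 (4.32 to 4.96) times for Hspd1. In Reactivated trophoblast the partners were apart, with Hspe1 3.59 (3.32 to 3.89) times EDG9.5 and Hspd1 1.93 (1.74 to 2.14) times. Over the 3 clusters there Hspd1 ran from 153 to 501 CPM and Hspe1 from 616 to 1055 CPM. In E5.5 over Reactivated trophoblast Hspe1 was 1.07 (1.01 to 1.12) and Hspd1 2.40 (2.22 to 2.58) times. Hspe1 also had the larger Reactivated ratio in endoderm. In epiblast the 2 stayed close, at 342 and 363 CPM in EDG9.5 and 649 and 636 CPM in Reactivated. Pseudogene copies of Hspe1 are listed separately in the tables, so the split of its counts is uncertain.

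Hspa9, mortalin, the HSP70 that pulls proteins through the inner membrane, did not reach 2-fold in epiblast or endoderm, at 404, 550.1, 421 and 488 CPM and 339.9, 318, 345 and 413 CPM. In trophoblast it stood at 183, 191, 332 and 567 CPM, with E5.5 2.96 (2.75 to 3.19) times EDG9.5. Trap1, the mitochondrial HSP90, stood at 55.3, 45.2, 56.4 and 93.8 CPM in epiblast, 67.4, 44.5, 29.4 and 48.9 CPM in endoderm and 23.1, 29.7, 26.4 and 65.8 CPM in trophoblast. Endoderm was the 1 lineage in which its Reactivated value lay below both diapause values beyond counting error, on the plain total. Reactivated Trap1 was 1.25 (0.970 to 1.61), 0.662 (0.524 to 0.834) and 0.889 (0.618 to 1.26) times EDG9.5 in epiblast, endoderm and trophoblast. E5.5 Trap1 was 2.07 (1.72 to 2.52), 1.10 (0.936 to 1.30) and 2.21 (1.84 to 2.69) times EDG9.5 in the same lineages.

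**Figure D5:**
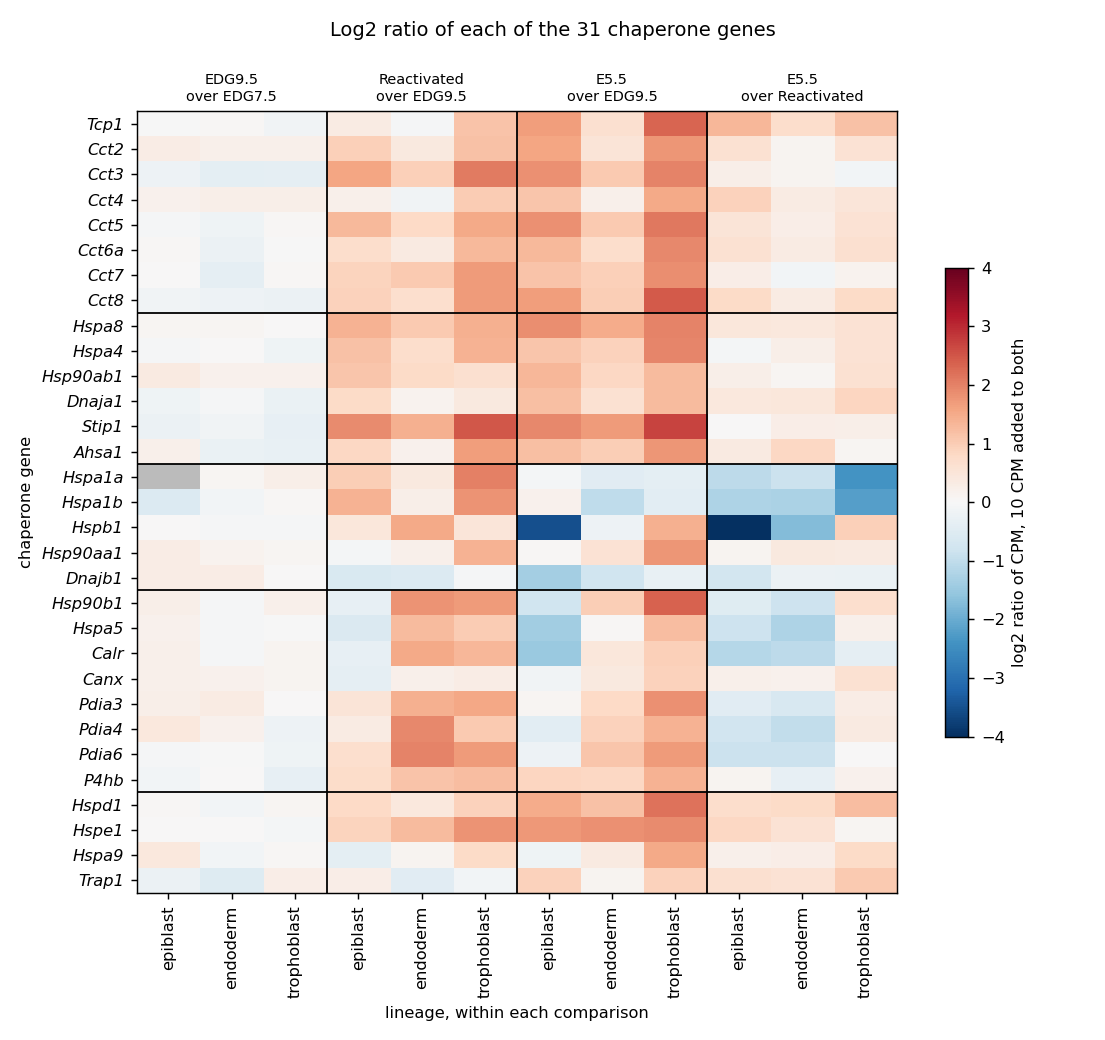
Log2 ratio of CPM, with 10 CPM added to both values (colour, red higher and blue lower in the library named first), of each of the 31 genes (rows) in each comparison and lineage (columns); grey marks a gene with under 10 UMIs in the 2 sums. The columns of EDG9.5 over EDG7.5 are pale throughout, Stip1 reaches 2.72 in E5.5 over EDG9.5 trophoblast, and Hspb1 reaches -3.97 in E5.5 over Reactivated epiblast.

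Other genes of the same pathways were read from lists of helpers, against the shares of all genes given above. Of the other ER folding genes measured in Reactivated over EDG9.5, 11 of 30 were 2-fold higher in endoderm, 8 of 29 in trophoblast and 1 of 30 in epiblast, with 0, 0 and 4 lower. Their median log2 ratios were 0.91, 0.52 and 0.04. Sdf2l1, a partner of BiP, stood at 58.9, 57.2, 607 and 88.7 CPM in endoderm, a single peak in Reactivated. Manf, an ER stress-induced secreted factor, stood at 274, 272, 1652 and 533 CPM there. Serpinh1, the collagen chaperone HSP47, stood at 1448, 1400.1, 2649.8 and 2533 CPM in endoderm and 92.8, 83.4, 89.5 and 84.1 CPM in epiblast, so its lineage gap was wide in every library.

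Of the ER stress sensors and degradation genes, 6 of 15 were 2-fold higher in Reactivated endoderm than in EDG9.5, with 1 lower, in trophoblast 2 of 14, with 3 lower, and in epiblast 0 of 15, with 3 lower. In E5.5 over EDG9.5 epiblast 8 of 15 were 2-fold lower and 0 higher. Xbp1, a transcription factor of the unfolded protein response, stood at 231, 312, 314 and 161 CPM in endoderm, with nearly equal EDG9.5 and Reactivated values, and at 89.96, 121, 171 and 37.0 CPM in epiblast. Eif2ak3, the sensor kinase PERK, stood at 189, 207, 10.3 and 7.44 CPM in trophoblast, high in both diapause libraries and low in both others. Vcp, the segregase that extracts ER proteins for degradation, stood at 110.0, 95.8, 294 and 242 CPM in endoderm.

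In the cytosol, 4 of 15, 0 of 15 and 5 of 15 other HSP90 helpers were 2-fold higher in Reactivated than in EDG9.5 in epiblast, endoderm and trophoblast, with 0, 1 and 1 lower. In E5.5 over EDG9.5 the higher ones were 4 of 15, 5 of 15 and 9 of 15, with 0, 0 and 0 lower. Fkbp4, an immunophilin that rides on HSP90, stood at 438, 356, 845 and 1242 CPM in epiblast. Ptges3, the HSP90 co-chaperone p23, stood at 145, 127, 365 and 542 CPM in trophoblast, and Ttc4 at 69.2, 91.2, 25.3 and 45.5 CPM there. Of the other HSP70 genes 0 of 21, 2 of 23 and 5 of 22 were 2-fold higher in Reactivated, with 0, 1 and 2 lower. Hsph1, the HSP110 exchange factor, stood at 42.5, 38.8, 304 and 782 CPM in trophoblast and at 331, 319.7, 350.0 and 458 CPM in endoderm. St13, the HSP70-interacting protein HIP, stood at 614, 684, 562 and 691 CPM in epiblast, with no marked peak there. It was highest in E5.5 in endoderm, at 322, 396, 496 and 814 CPM, and in trophoblast, at 271, 323, 355 and 608 CPM.

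Prefoldin, the hexamer that delivers actin and tubulin to the CCT ring, was read beside the ring. Of its subunits and other CCT helpers 0 of 8, 1 of 8 and 1 of 9 were 2-fold higher in Reactivated than in EDG9.5, with 0, 0 and 0 lower and with median log2 ratios of 0.44, 0.42 and 0.54 against 0.91, 0.53 and 1.41 for the ring, of which 2, 1 and 8 of 8 were higher. Pfdn2 stood at 215, 212, 303 and 356 CPM, Pfdn1 at 215, 204, 307 and 210.1 CPM and Pfdn4 at 93.8, 69.2, 117 and 236 CPM in epiblast. Among other mitochondrial import and folding genes 1 of 13, 0 of 13 and 3 of 13 were 2-fold higher in Reactivated, with 2, 0 and 1 lower. The import receptors Tomm20 and Tomm70a stood at 49.7, 40.6, 138 and 219 CPM and 93.4, 101, 221 and 321 CPM in trophoblast. Of the other small heat shock and heat shock factor genes 0 of 6, 0 of 7 and 2 of 6 were 2-fold higher in Reactivated, with 1, 0 and 0 lower.

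Hspb8, a further small heat shock protein, was also lowest in E5.5 epiblast, with 222, 181, 78.2 and 12.3 CPM, and stood at 5.76, 2.29, 47.7 and 87.9 CPM in trophoblast. Cryab, the lens small heat shock protein, reached its highest trophoblast value in Reactivated, at 8.19, 9.65, 57.4 and 5.54 CPM, and Hsbp1, which binds heat shock factor, stood at 139, 116, 115 and 94.7 CPM in epiblast. Of the immediate early genes, Fos stood at 602, 1031, 109 and 15.2 CPM, Jund at 424, 354, 219 and 109 CPM and Klf6 at 258, 331, 229 and 69.9 CPM in epiblast, each lowest in E5.5 there. In endoderm Fos and Jund were also lowest in E5.5, but Klf6 was highest in it, at 302, 434, 370 and 532 CPM. In trophoblast Jund was lowest in E5.5, and Fos and Klf6 were lowest in Reactivated.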

How the data were processed

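Single-cell RNA of 4 mouse embryo libraries was deposited by the authors as raw counts, whole-number molecule counts (UMIs) per gene and cell barcode. Per the submitters' processing notes, UMI-tools 1.0.1, STAR 2.7.1a and featureCounts 1.6.4 of Subread were used with mm10; annotation and strand setting: not given in the sources used here, so reads of overlapping genes may be mixed. The E4.5 stage named in the series' text is not analysed here.

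From these counts, cells were kept from 1000 UMIs and 500 genes upwards if less than 25% of UMIs were mitochondrially encoded, which left 1670 for EDG7.5, 2458 for EDG9.5, 673 for Reactivated and 9541 for E5.5, and 12, 7, 2 and 278 doublets called by Scrublet were removed. Each library was clustered with scanpy 1.11.5 (2000 variable genes, 30 principal components, 15 neighbours, Leiden resolution 1). A cluster took the name of the marker list that led by at least 0.5 on the log2 scale, with at least 3 markers at 20 CPM or more, and stayed unnamed where its top 10 genes held more markers of another list. UMIs were summed per lineage and library and given as CPM. A ratio was used where both sums held at least 10 UMIs together, 10 CPM was added before log2, and 2-fold marked a call. Intervals are exact Poisson (levels) or exact binomial (ratios) at 95%, from scipy 1.17.1 and numpy 2.4.6, and cover counting error only. With 1 library per group there was no test and no p-value. TMM factors came from edgeR 4.0.16 in R 4.3.3. The computation was tested on simulated data. Promoters came from the RefSeq table of GRCm38.p6, and 26 of 31 members had an entry.

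All members are described. From each helper list the 2 genes with the highest mean CPM and the 1 with the largest log2 ratio of Reactivated over EDG9.5 in size, in either direction, were named, and the genes of single clusters, Sparc and the 1 cell behind Hspa1a were singled out after their values were seen. Markers of uterine epithelium, decidual stroma, immune cells, red blood cells and endothelium were summed; the endothelium list reached 252 CPM in EDG7.5 epiblast, of which Pecam1 gave 226 CPM. Members and lists were chosen with earlier results of these data known. Alternatives covered the cell filters, doublets, clustering, scaling, averaging, depth, the CPM added and the UMI minimum; keeping the unnamed clusters in trophoblast and leaving out the 1 cell were added after seeing the data.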

Additional observations from a re-analysis of the deposited data

How the results depend on the processing

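Each stage is 1 library, so no value here has a replicate check, and low counts limit several members, with 8 to 85 UMIs for Hspa1a in trophoblast over the 4 libraries and 30 to 38 for Hspb1 in trophoblast of the first 3. No paired analysis was possible because each group holds 1 library. TMM factors had the widest effect: in Reactivated over EDG9.5 epiblast 17 members were 2-fold higher in place of 7, and in E5.5 over EDG9.5 endoderm 18 in place of 7, with 0 lower in place of 1. In E5.5 over EDG9.5 epiblast 2, Hspb1 and Calr, were lower in place of 4, and in E5.5 over Reactivated epiblast 2 were higher in place of 1. The CCT median log2 ratio in E5.5 over EDG9.5 was 2.03 in place of 1.62 in epiblast and 1.18 in place of 0.83 in endoderm, and the ER median in endoderm was 1.18 in place of 0.81. With each cell's CPM averaged, 11 members were 2-fold higher in E5.5 over EDG9.5 endoderm. With 1 CPM added in place of 10, 1 member was lower in EDG9.5 over EDG7.5 epiblast, 2 in E5.5 over EDG9.5 endoderm and 1 in E5.5 over EDG9.5 trophoblast. With 50 CPM added, 0 were lower in E5.5 over EDG9.5 endoderm, and in E5.5 over Reactivated 2 in epiblast and 1 in trophoblast. Thinning to 1000 UMIs gave 2 members higher in E5.5 over Reactivated epiblast. With a mitochondrial limit of 10%, 1 member was higher in EDG9.5 over EDG7.5 trophoblast, and Hspb1 in E5.5 over EDG9.5 trophoblast turned from 1.41 to -0.64. Without the 1 cell with most Hspa1a and Hspa1b UMIs, E5.5 over Reactivated trophoblast was -1.02 for Hspa1a and -1.49 for Hspa1b. With the unnamed clusters in trophoblast, 20 members were 2-fold higher in Reactivated over EDG9.5 in place of 23. The cause of these shifts was not tested. Under the other alternatives (2000 UMIs per cell, no doublet removal, Leiden resolutions 0.5 and 2, a total without ribosomal protein and mitochondrial genes, and 50 or no UMIs as the minimum) every group median stayed within its spread and every count of members within 1.5 times its value.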
